A study of Mus musculus with 12 samples.

Results

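Prss35, Prdm8, Kazald1, Slc26a7 and Slc15a2 are 5 mouse genes that stood out in dermal fibroblasts from skin around papillomas, Prss35 by a high and the other 4 by a low RNA level. They were chosen by the size of their differences on these same arrays, so their levels in tumour-associated skin are a description and carry no test. They are 5 of 18193 genes measured, and were read by 8 of the 34945 probe sets whose annotation names exactly 1 gene. Where a gene had several probe sets, that with the highest mean over the 12 arrays was the main one.

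The arrays covered 4 samples from skin around tumours of InvEE mice (tumour-associated), 4 from InvEE skin labelled as inflammation (inflamed) and 4 from wild-type skin (normal). InvEE mice express an activated form of the kinase MEK1 from the involucrin promoter, which is active in differentiating epidermal cells, so the transgene acts outside the fibroblasts that were measured. All animals were 7-week-old males, and all 3 groups carried the PDGFRα-H2B-eGFP allele, whose green nuclear protein marks cells with active Pdgfra and was used to sort live cells from enzyme-digested back skin dermis. Affymetrix arrays gave 1 normalised log2 value per probe set and sample. Separate animals for the replicates of a group are not stated, so the p-values reflect only variation among these 12 arrays, some of which may be technical.

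Prss35 encodes a secreted protein with the fold of trypsin-like serine proteases that is described as lacking the usual catalytic serine. Prdm8 is a nuclear protein of the PR-domain zinc finger family, known in mouse neurons as a repressor that works with the transcription factor Bhlhe22. Kazald1 is a secreted protein related to the insulin-like growth factor (IGF) binding proteins, with a Kazal-type and an immunoglobulin-like domain, and was described in mouse bone formation. Slc26a7 is an anion exchanger known from stomach, kidney and thyroid epithelium. Slc15a2, also called Pept2, carries dipeptides and tripeptides into cells together with protons and is known best from kidney and brain.

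The 5 genes lie on 5 chromosomes of the GRCm38.p6 assembly: Prss35 on chromosome 9 (86743240 to 86758443), Prdm8 on chromosome 5 (98167203 to 98187454), Kazald1 on chromosome 19 (45074962 to 45079289), Slc26a7 on chromosome 4 (14502430 to 14621946) and Slc15a2 on chromosome 16 (36750161 to 36785158). The promoter windows of RefSeq, from 250 bases before to 50 bases after the start, are shown for Prss35, Prdm8, Kazald1 and Slc15a2, so that the high gene can be read beside low ones. Capitals mark matches on either strand to 6 motifs that were searched. The TATA box was spelled TATAAA, the CCAAT box CCAAT and the GC box GGGCGG. The AP-1 motif was spelled TGANTCA, the TEAD motif GGAATG and the E-box CACGTG.
Prss35, chr9:86743383-86743682, plus strand: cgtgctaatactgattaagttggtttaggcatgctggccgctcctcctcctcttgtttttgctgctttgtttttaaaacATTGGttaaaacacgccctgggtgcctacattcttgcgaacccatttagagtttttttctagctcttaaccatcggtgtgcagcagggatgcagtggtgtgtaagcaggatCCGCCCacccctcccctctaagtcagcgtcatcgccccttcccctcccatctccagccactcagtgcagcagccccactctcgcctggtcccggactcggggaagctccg
Prdm8, chr5:98180619-98180918, plus strand: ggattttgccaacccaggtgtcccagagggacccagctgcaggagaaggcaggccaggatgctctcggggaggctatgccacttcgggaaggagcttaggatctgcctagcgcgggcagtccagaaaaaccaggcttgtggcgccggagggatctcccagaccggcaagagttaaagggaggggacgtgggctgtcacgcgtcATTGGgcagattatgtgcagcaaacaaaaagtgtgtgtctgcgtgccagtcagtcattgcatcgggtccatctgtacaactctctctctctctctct
Kazald1, first of 2 starts, chr19:45074991-45075290, plus strand: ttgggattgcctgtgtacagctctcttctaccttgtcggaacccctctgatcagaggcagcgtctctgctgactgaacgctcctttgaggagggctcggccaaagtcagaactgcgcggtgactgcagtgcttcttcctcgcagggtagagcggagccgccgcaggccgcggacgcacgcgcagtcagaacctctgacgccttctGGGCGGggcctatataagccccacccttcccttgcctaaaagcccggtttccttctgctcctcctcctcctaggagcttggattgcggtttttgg
Slc15a2, chr16:36784913-36785212, minus strand: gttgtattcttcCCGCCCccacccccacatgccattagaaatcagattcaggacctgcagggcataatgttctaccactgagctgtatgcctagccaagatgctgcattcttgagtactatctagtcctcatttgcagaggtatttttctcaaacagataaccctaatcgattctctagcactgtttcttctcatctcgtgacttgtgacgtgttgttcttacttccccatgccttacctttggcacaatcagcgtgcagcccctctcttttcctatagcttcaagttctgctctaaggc
The Prss35 window held 1 CCAAT box and 1 GC box, that of Prdm8 1 CCAAT box, and those of Kazald1 and Slc15a2 1 GC box each. No matches overlapped. Of 32851 promoter windows, 37.4% held the CCAAT box and 35.7% the GC box, so these matches are common. None of the 4 windows printed held the exact letters searched for the TATA box (13.6% of all windows), the AP-1 motif (7.8%), the TEAD motif (14.7%) or the E-box (7.2%). Near spellings were not counted, such as the tatataag after the GC box of Kazald1, so a TATA-like element there is not excluded. The window at the second Kazald1 start, which is not printed, held 1 GC box and 1 TEAD motif. The G and C content was 54.0% for Prss35, 57.7% for Prdm8, 60.0% for Kazald1 and 46.3% for Slc15a2, against a median of 52.7% over all windows. Prss35 thus had the GC box in common with Kazald1 and Slc15a2 and the CCAAT box in common with Prdm8, and neither was in all 4 windows.

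Prss35 was high on every tumour-associated array, low on every normal array and low on the inflamed arrays other than array 3. Its normalised log2 values were 12.80, 12.20, 11.51 and 10.40 on tumour-associated arrays 1 to 4. Inflamed arrays 1 to 4 gave 5.37, 4.75, 7.59 and 5.09, and normal arrays 1 to 4 gave 4.60, 4.73, 4.63 and 4.90. The lowest tumour-associated array lay 2.80 above the highest inflamed array and 5.5 above the highest normal array. Inflamed and normal arrays overlapped, and inflamed array 3 was the highest of those 8.

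Group means of Prss35 were 11.73 ± 1.03 (SD, n = 4) in tumour-associated, 5.70 ± 1.29 in inflamed and 4.71 ± 0.13 in normal samples. The difference was 7.01 ± 0.59 (log2, SE) between tumour-associated and normal samples, which corresponds to 129-fold, and 6.03 ± 0.59 between tumour-associated and inflamed samples. Among all genes it had the second largest positive difference in each of these comparisons, as the values that chose it. The inflamed and normal means were below 6.163, under which 40% of all probe sets averaged and which is called dim here, so the fold depends on how background was treated. Inflamed samples stood 0.99 ± 0.59 above normal samples (limma, adjusted p = 0.434). Without inflamed array 3 that difference was 0.35 ± 0.44 (adjusted p = 0.736).

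**Figure D1:**
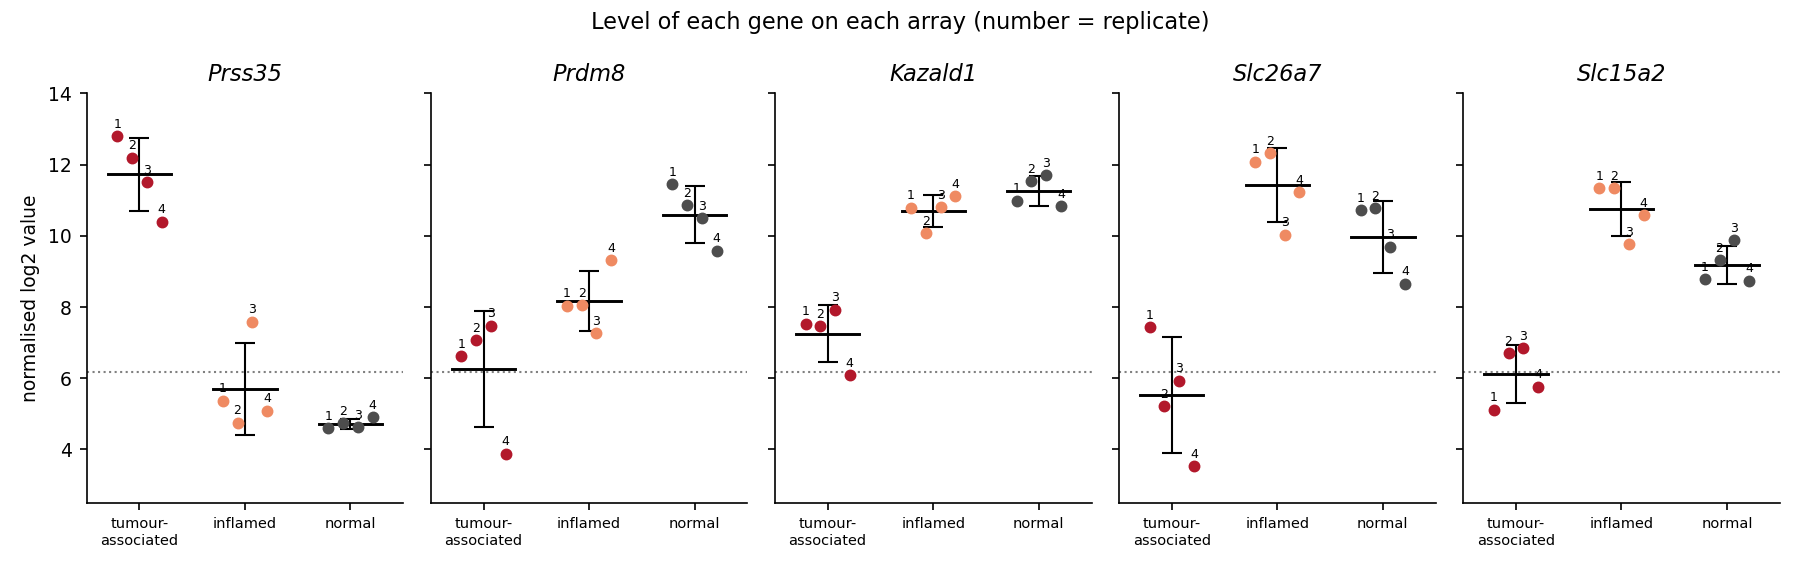
Normalised log2 value of the main probe set of each gene (vertical axis) on each array, by group (horizontal axis). Points are arrays with their replicate number, the horizontal line and bar are the mean and SD of 4 arrays, and the dotted line is the dim limit of 6.163. Prss35 is high only on the left of its panel, Prdm8 steps down from right to left, Kazald1 is low in tumour-associated samples, and both transporters have their highest means in inflamed samples.

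Prdm8 was graded across the 3 groups. It read 6.61, 7.07, 7.48 and 3.88 on tumour-associated arrays 1 to 4. Its inflamed values were 8.04, 8.06, 7.27 and 9.31, and its normal values 11.46, 10.87, 10.49 and 9.58. Every inflamed array lay below every normal array, with a gap of 0.27, while tumour-associated and inflamed arrays overlapped by 0.20.

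The means of Prdm8 were 6.26 ± 1.63 (SD, n = 4) in tumour-associated, 8.17 ± 0.84 in inflamed and 10.60 ± 0.79 in normal samples. Tumour-associated samples differed by -4.34 ± 0.71 (log2, SE) from normal and by -1.91 ± 0.71 from inflamed samples. Array 4 of the tumour-associated group lay far below the other 3, and without it these differences were -3.55 ± 0.49 and -1.12 ± 0.49. Inflamed samples differed from normal samples by -2.43 ± 0.71, or 56.0% of the difference between tumour-associated and normal samples. That difference did not pass over all genes (limma, adjusted p = 0.146, range over the alternatives 0.0126 to 0.332). Among negative differences of 18193 genes it ranked 7 by size and 310 by moderated t, the difference over its SE. The same normal arrays helped to choose Prdm8, so its size is not free of that choice. The difference passed without tumour-associated array 4, which enters only through the shared estimate of spread (adjusted p = 0.0338), and with array weights (-2.46 ± 0.44, adjusted p = 0.0126).

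The poly-A spike controls, RNAs added in known amounts, moved with the inflamed group. Their mean log2 level lay between 9.78 and 12.50 on tumour-associated, 7.76 and 8.60 on inflamed and 9.24 and 12.24 on normal arrays. With that level added to the model, Prdm8 stood at 0.51 ± 0.86 between tumour-associated and inflamed samples, the opposite sign, and at -4.46 ± 0.77 between inflamed and normal samples (limma, adjusted p = 0.193). The difference between tumour-associated and normal samples was -3.96 ± 0.52 in that fit. The place of the inflamed samples between the other groups therefore depended on whether this covariate was in the model. All inflamed arrays lay below all other arrays in spike level, so spike level and group cannot be told apart for them. The part of the spike level in the result was not tested.

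Kazald1 was near its normal level in inflamed samples and low in tumour-associated samples. Tumour-associated arrays 1 to 4 gave 7.53, 7.46, 7.93 and 6.08. Those of inflamed skin gave 10.79, 10.08, 10.80 and 11.12, and those of normal skin 10.99, 11.54, 11.71 and 10.84. All tumour-associated arrays lay at least 2.16 below all others, and inflamed and normal arrays overlapped.

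Kazald1 averaged 7.25 ± 0.80 (SD, n = 4) in tumour-associated, 10.70 ± 0.44 in inflamed and 11.27 ± 0.42 in normal samples, all above the dim limit. The differences were -4.02 ± 0.37 (log2, SE) between tumour-associated and normal samples and -3.45 ± 0.37 between tumour-associated and inflamed samples. Inflamed and normal samples differed by -0.57 ± 0.37 (limma, adjusted p = 0.465), which is 14.2% of the difference between tumour-associated and normal samples. The spread between arrays was small beside the first 2 differences and of like size to the third. With the spike covariate the difference between tumour-associated and inflamed samples was -2.15 ± 0.42, and that between inflamed and normal samples -1.66 ± 0.38 (adjusted p = 0.251).

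**Figure D2:**
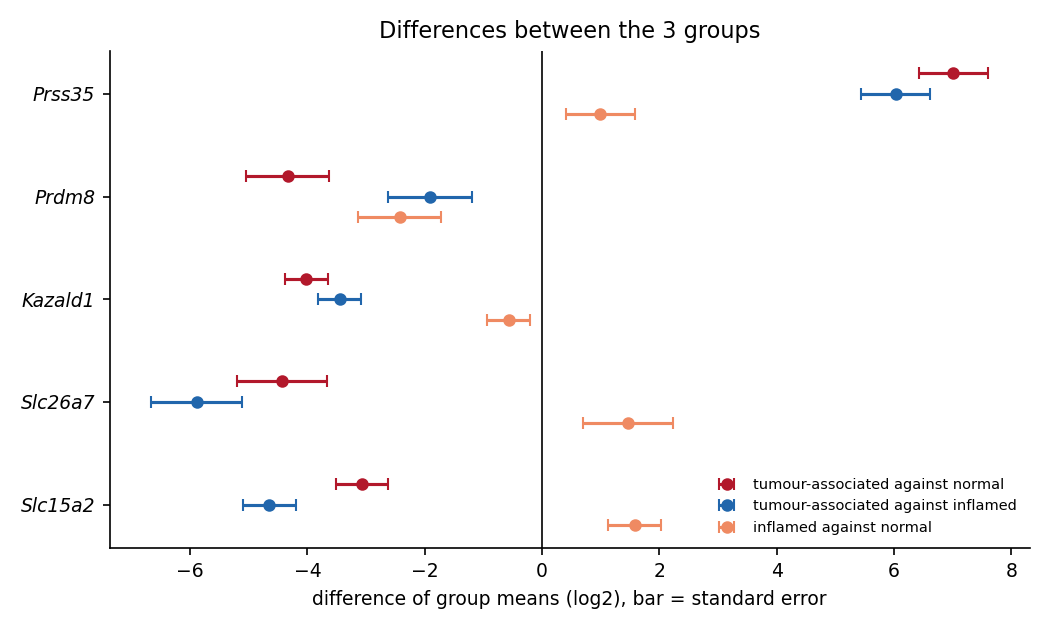
Difference of group means (log2, horizontal axis) for the main probe set of each gene, with its standard error, in 3 comparisons. Red and blue points compare tumour-associated with normal and with inflamed samples and orange points compare inflamed with normal samples. The orange points of Slc26a7 (1.46) and Slc15a2 (1.58) lie on the other side of 0 from their red and blue points.

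The 2 transporters had a different order of groups, with the highest means in inflamed samples. Slc26a7 gave 7.43, 5.22, 5.93 and 3.52 on tumour-associated arrays 1 to 4, against 12.08, 12.33, 10.03 and 11.23 on inflamed arrays and 10.73, 10.77, 9.70 and 8.66 on normal arrays. Tumour-associated arrays lay 1.23 or more below all normal arrays and 2.60 or more below all inflamed arrays. Inflamed and normal arrays overlapped, since inflamed array 3 lay below normal arrays 1 and 2.

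Means of Slc26a7 were 5.53 ± 1.62 (SD, n = 4) in tumour-associated, 11.42 ± 1.04 in inflamed and 9.96 ± 1.00 in normal samples. The tumour-associated mean was dim. The differences were -5.89 ± 0.77 (log2, SE) between tumour-associated and inflamed samples, the largest negative difference of all genes, and -4.44 ± 0.77 between tumour-associated and normal samples. Inflamed samples stood 1.46 ± 0.77 above normal samples (limma, adjusted p = 0.379), and 0.07 ± 1.10 above them with the spike covariate (adjusted p = 0.984).

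The second probe set of Slc26a7 gave 8.92, 5.07, 5.89 and 6.55 on tumour-associated, 11.51, 11.61, 9.02 and 10.50 on inflamed and 9.86, 10.33, 9.27 and 8.35 on normal arrays. Its differences were -2.85 ± 0.79 (log2, SE) between tumour-associated and normal and -4.05 ± 0.79 between tumour-associated and inflamed samples. On this probe set tumour-associated array 1 lay above normal array 4, so those groups overlapped, while tumour-associated and inflamed arrays stayed 0.10 apart. Both probe sets ran the same way, with a smaller difference on the second.

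Slc15a2 gave 5.12, 6.71, 6.84 and 5.76 on tumour-associated arrays, against 11.34, 11.34, 9.76 and 10.58 on inflamed and 8.79, 9.31, 9.88 and 8.74 on normal arrays. Here too tumour-associated arrays were apart from both other groups, by 1.90 from normal and 2.92 from inflamed arrays. Inflamed and normal arrays overlapped by 0.12, through inflamed array 3 and normal array 3.

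For Slc15a2 the means were 6.11 ± 0.82 (SD, n = 4) in tumour-associated, 10.76 ± 0.75 in inflamed and 9.18 ± 0.53 in normal samples, the first of them just under the dim limit. Tumour-associated samples differed by -3.07 ± 0.45 (log2, SE) from normal and by -4.65 ± 0.45 from inflamed samples. The second difference was the fourth largest negative one of all genes. Inflamed samples stood 1.58 ± 0.45 above normal samples (limma, adjusted p = 0.137, range over the alternatives 0.0311 to 0.613). That difference passed with array weights (1.64 ± 0.37, adjusted p = 0.0311) and with the Gapdh covariate described below (1.81 ± 0.36, adjusted p = 0.0483), and was 0.81 ± 0.64 with the spike covariate.

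The other probe sets of Slc15a2 did not show this pattern: the "_a_" probe set lay between 5.73 and 6.36 and the "_s_" probe set between 4.23 and 5.51 over the 12 arrays. Both were dim in every group, with differences between -0.15 and 0.24 (log2). When all 3 probe sets were averaged, the differences were -0.98 ± 0.15 between tumour-associated and normal samples and -1.44 ± 0.15 between tumour-associated and inflamed samples. The result for Slc15a2 thus rests on 1 of its 3 probe sets.

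**Figure D3:**
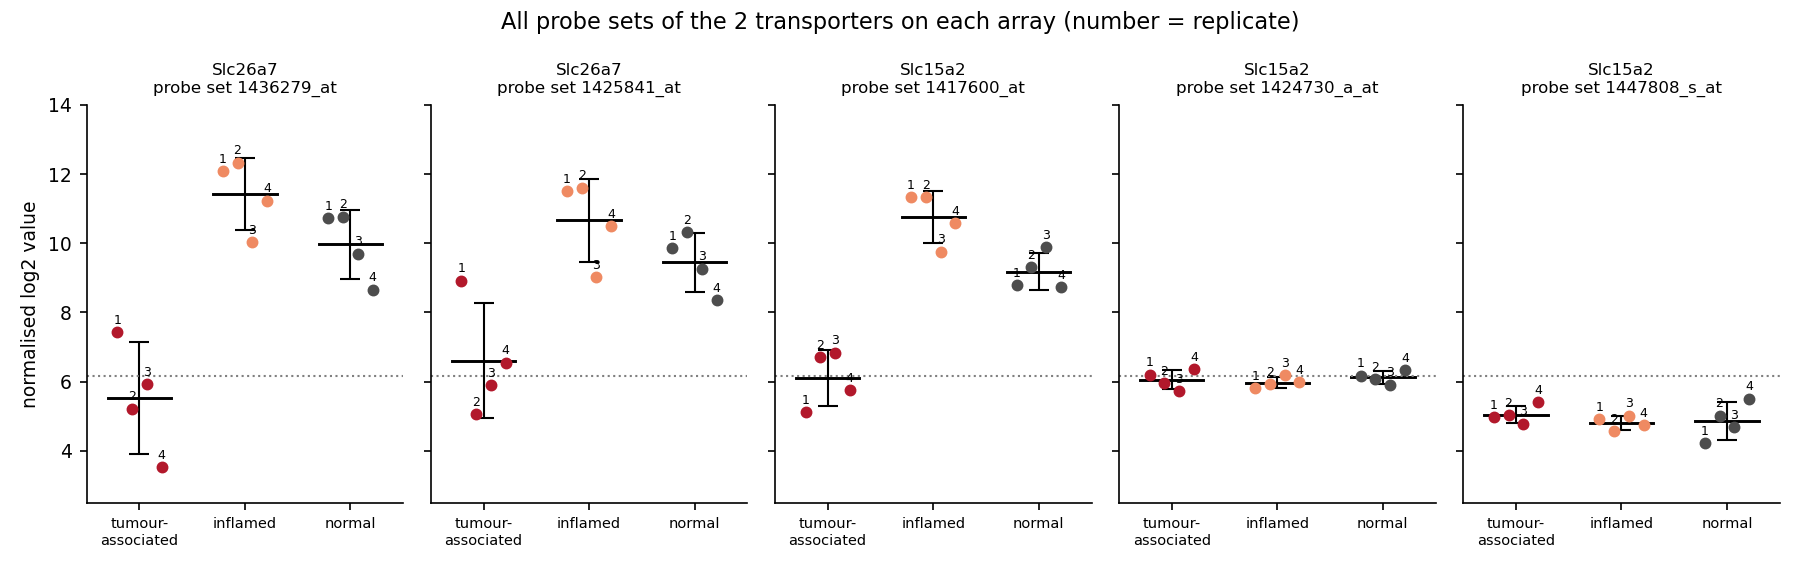
Normalised log2 value (vertical axis) of every probe set of Slc26a7 and Slc15a2 on each array, by group (horizontal axis), with mean and SD of 4 arrays and the dim limit of 6.163 as a dotted line. Both probe sets of Slc26a7 and the first of Slc15a2 are lowest in tumour-associated samples, while the other 2 probe sets of Slc15a2 stay between 4.23 and 6.36.

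Between inflamed and normal samples, the comparison that the choice of genes does not name, 0 of the 5 genes passed by limma, where 0.533% of all genes did (0.258% higher and 0.275% lower). The unadjusted p (limma) was under 0.05 for 2 of them, Prdm8 and Slc15a2, and for 2837 of all 18193 genes. The normal samples are shared with a comparison that chose the genes, so these tests are not free of that choice. In 1 of the 5 genes, Prdm8, the arrays of these groups did not overlap, where 15.3% of all genes had no overlap (5.07% higher and 10.2% lower). Tumour-associated and normal arrays did not overlap in 5 of 5 genes, where 7.22% of all genes were apart and higher, 6.56% apart and lower, and 13.8% either. Tumour-associated and inflamed arrays did not overlap in 4 of 5, where the shares were 14.5%, 6.66% and 21.1%. Nothing is read from these last 2 counts, because the genes were chosen in those comparisons.

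Single arrays stood out in several of these genes at once. Tumour-associated array 4 was the lowest of its group for Prss35, Prdm8, Kazald1 and Slc26a7. It also had the highest spike level of all arrays (12.50) and the largest excess of the 3′ over the 5′ Gapdh signal (3.76), which grows as RNA is degraded or incompletely copied. Inflamed array 3 was the lowest of its group for Prdm8, Slc26a7 and Slc15a2 and the highest for Prss35, and had the highest Gapdh difference of its group (3.37). Normal array 4 was the lowest of its group for Prdm8, Kazald1, Slc26a7 and Slc15a2, and had the highest spike level (12.24) and Gapdh difference (2.28) there. The Gapdh difference lay between 2.29 and 3.76 on tumour-associated, 1.62 and 3.37 on inflamed and 1.59 and 2.28 on normal arrays. With that measure as a covariate, the differences between tumour-associated and normal samples were -3.07 ± 0.63 for Prdm8, -3.03 ± 0.66 for Slc26a7 and -2.35 ± 0.43 for Slc15a2, and the part of RNA quality in these values was not tested.

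The sorted cells carried fibroblast RNA in all groups. The log2 of the summed level of 7 fibroblast markers lay between 16.47 and 16.56 on tumour-associated, 16.22 and 16.52 on inflamed and 16.54 and 16.57 on normal arrays, and none of the 7 was dim. Col1a1, Col1a2, Col3a1 and Dcn, with group means from 13.79 to 14.54, dominate that sum, which says little about the remaining markers. Pdgfra was higher in tumour-associated than in normal samples (0.93 ± 0.25, limma, adjusted p = 0.0349, called under 14 of 23 alternatives). Pdgfrb was higher in tumour-associated than in inflamed samples (0.55 ± 0.12, limma, adjusted p = 0.0211, called under 18 of 23). Fewer cells of a type and less RNA per cell cannot be told apart in these samples.

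Dermal papilla cells are the mesenchyme at the base of hair follicles. Most of their markers, like both transporters, were lower in tumour-associated than in inflamed samples, while against normal samples the markers were mixed. Of 8 markers, 6 were lower in tumour-associated than in inflamed samples by limma, where 3.04% of all genes were lower: Corin, Sox18, Sox2, Rspo3, Hhip and Lef1. The transcription factor Sox18 had -3.96 ± 0.47 (log2, SE; limma, adjusted p between 0.000166 and 0.0766 over the alternatives), and none of the 6 kept its call with the spike covariate. In the comparison of tumour-associated with normal samples 1 of 8 rose (4.85% of all genes), the retinoic acid binding protein Crabp1. There 2 fell (4.80% of all genes), Sox18 and Sox2, and the median was -0.80. Sox18 kept that call under 6 of 23 alternatives, Sox2 under 9 of 22 and Crabp1 under 21 of 22. None of 8 passed between inflamed and normal samples by limma (0.533% of all genes did). The unadjusted p was nevertheless under 0.05 for 8 of 8 (2837 of 18193 genes), and the median was 2.17.

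The summed level of these markers is dominated by Crabp1, and lay between 13.65 and 14.01 on tumour-associated, 13.55 and 14.79 on inflamed and 11.50 and 13.30 on normal arrays (log2). The sum of the other 7 was 9.63 to 10.47 on tumour-associated, 12.35 to 14.11 on inflamed and 10.10 to 11.23 on normal arrays. It was highest on inflamed array 3, on which both transporters were lowest within their group. In tumour-associated samples 3 of the 8 markers were dim, Corin, Sox2 and Rspo3. Whether follicle cells have a part in the levels of Slc26a7 and Slc15a2 was not tested.

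Summed pericyte and muscle markers were lower in tumour-associated than in normal samples. Only 1 of the genes in the sum passed that comparison by limma, where 9.65% of all genes did. The log2 of the summed level of 7 such markers was at most 10.33 on tumour-associated, 10.68 to 11.29 on inflamed and 11.72 to 11.82 on normal arrays, and 0 of the 7 were dim. The potassium channel subunit Kcnj8 averaged 7.07 in tumour-associated, 9.22 in inflamed and 11.08 in normal samples, and passed by limma in all 3 comparisons, between inflamed and normal samples under 18 of 23 alternatives. The other 6 did not pass against normal samples, with differences between -0.74 (Des) and 0.64 (Mcam). Notch3, Cspg4 and Mcam had their highest means in inflamed samples. By limma, 3 of the 7 were lower in tumour-associated than in inflamed samples, where 3.04% of all genes were lower. These were Kcnj8, Notch3 (-1.31, adjusted p = 0.0343, called under 14 of 23 alternatives) and Cspg4 (-1.34, adjusted p = 0.035, called under 12 of 23). For 8 macrophage markers the sums were 9.97 to 11.05 on tumour-associated, 10.37 to 11.57 on inflamed and 11.89 to 12.21 on normal arrays. Csf1r, a receptor that macrophages need, differed by -2.14 ± 0.45 between tumour-associated and normal samples (limma, adjusted p = 0.0102), where 4.80% of all genes were lower. It was the one macrophage marker that passed in any comparison. The list's median difference was -0.19 between tumour-associated and normal samples and 0.27 between tumour-associated and inflamed samples, and Adgre1 was dim in every group. The sums of 11 keratinocyte markers were 10.49 to 12.30 on tumour-associated, 11.55 to 12.77 on inflamed and 10.23 to 10.57 on normal arrays. By limma, 2 of the 11, Krt15 and Perp, were higher in inflamed than in normal samples, where 0.258% of all genes were higher. They kept that call under 18 and 12 of 23 alternatives, and the list's median difference was 1.48. Krt14 and Dsp were higher in tumour-associated than in normal samples (4.85% of all genes), under 20 and 16 of 23 alternatives. Krt15 was lower in tumour-associated than in inflamed samples. The part of these cells in the levels of the 5 genes was not tested.

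The genes whose pattern was most like that of each gene were taken by Pearson correlation of log2 values over the 12 arrays, as a description, since the arrays fall into 3 groups. For Prss35 they were Col5a3, a chain of type V collagen (r = 0.981), P4ha3, a subunit of collagen prolyl hydroxylase (0.981), Mbnl3, an RNA-binding protein (0.979), and Fhl2, a LIM domain protein (0.978). P4ha3 averaged 10.80 in tumour-associated, 6.79 in inflamed and 6.58 in normal samples, and Col5a3 averaged 12.05 in tumour-associated, 9.59 in inflamed and 9.56 in normal samples. Like Prss35, each of these had its highest mean in tumour-associated samples, which their choice by correlation favours. Between inflamed and normal samples none of the 4 passed by limma (0.533% of all genes did). Their differences there were 0.03 (Col5a3) to 0.41 (Mbnl3), beside 0.99 for Prss35.

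For Prdm8 the most alike genes were Lrrc61 (r = 0.967), Lims2, an adaptor at integrin adhesions (0.961), Gstm1, a glutathione transferase (0.960), and Tspan4, a tetraspanin (0.956). Lims2 averaged 8.03 in tumour-associated, 8.80 in inflamed and 10.20 in normal samples. For Kazald1 they were Il1r2, a decoy receptor of interleukin 1 (0.975), Eef2k, the kinase of elongation factor eEF2 (0.973), Cldn10, a claudin of tight junctions (0.970), and Npr2, a natriuretic peptide receptor (0.967). Npr2 averaged 9.30 in tumour-associated, 10.61 in inflamed and 10.73 in normal samples. All 8 genes had their highest mean in normal samples, which their choice by correlation favours. Between inflamed and normal samples none of the 8 passed by limma (0.533% of all genes did), with differences from -1.40 (Lims2) to -0.13 (Npr2).

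For Slc26a7 the list held Pappa2, a metalloprotease that cleaves IGF-binding proteins (r = 0.962), and Tfap2a, the transcription factor AP-2 alpha (0.954). It also held Snord104 (0.953) and Rbm25, a splicing factor (0.953). Snord104 is a gene of a small nucleolar RNA, and which transcript its probe set read was not tested. Pappa2 averaged 6.78 in tumour-associated, 11.11 in inflamed and 9.78 in normal samples, and Tfap2a averaged 6.59 in tumour-associated, 10.93 in inflamed and 9.43 in normal samples. For Slc15a2 the list held Bcl2, an inhibitor of cell death (0.975), Hexim1, an inhibitor of the transcription elongation kinase P-TEFb (0.970), Fgfr2, a receptor of fibroblast growth factors (0.962), and Mepce, which caps 7SK RNA (0.961). Bcl2 averaged 9.03 in tumour-associated, 11.87 in inflamed and 10.75 in normal samples. All 8 genes, like both transporters, had their highest mean in inflamed samples, which their choice by correlation favours. Between inflamed and normal samples none of the 8 passed by limma (0.533% of all genes did). The smallest differences there were 0.11 ± 0.25 (log2, SE) for Rbm25 and 0.22 ± 0.27 for Snord104, and the largest was that of Tfap2a.

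**Figure D4:**
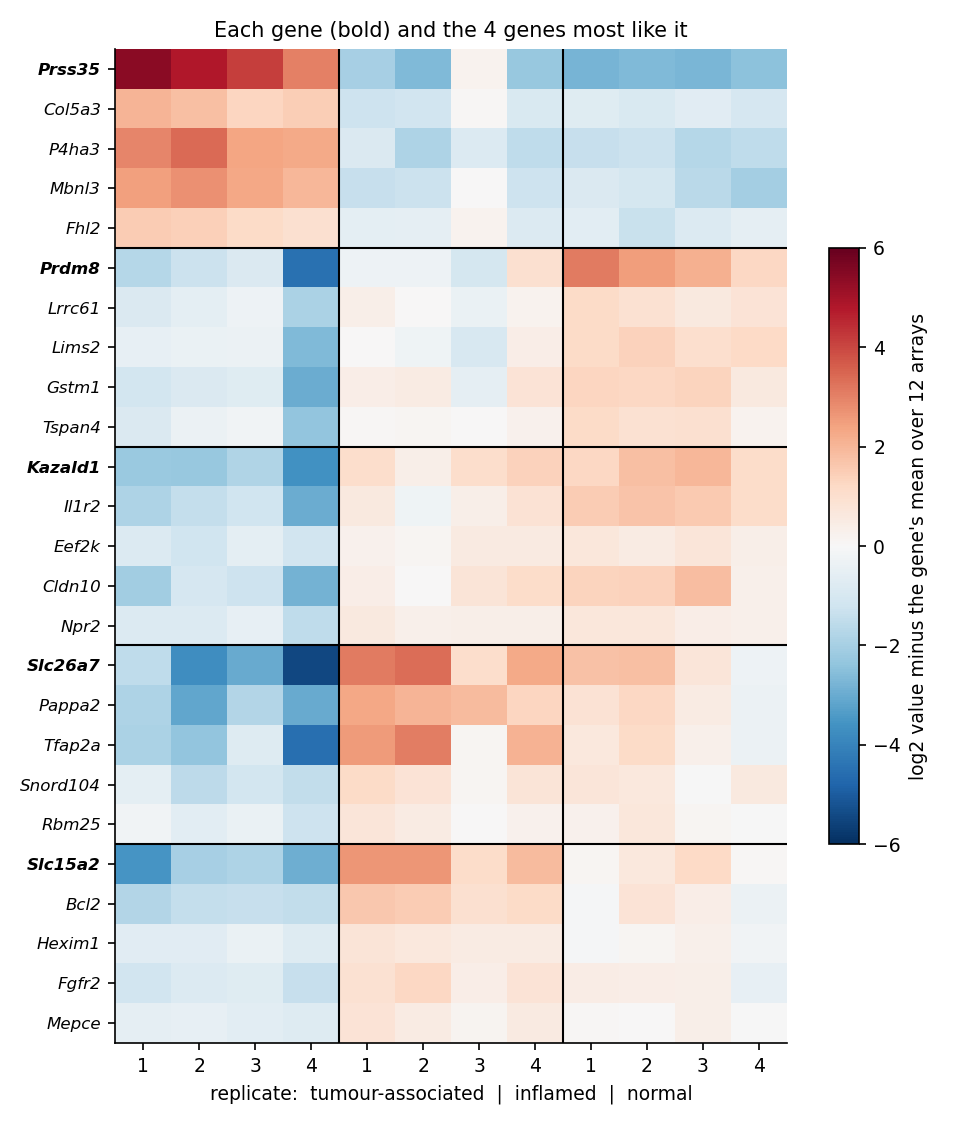
Log2 value minus the mean of the gene over 12 arrays (colour, red high and blue low) for each of the 5 genes (bold) and the 4 genes most like it, by array (columns, replicate number below, groups separated by lines). The block of Prss35 is red in tumour-associated samples, and the other 4 blocks are blue there and darkest for Prdm8 and Slc26a7 on array 4.

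Among the 5 genes themselves, Slc26a7 and Slc15a2 were the most alike (r = 0.89 over 12 arrays), followed by Kazald1 with Slc26a7 (0.87) and Prdm8 with Kazald1 (0.85). Prdm8 and Slc15a2 were the least alike of the 4 low genes (0.55). Prss35 was opposite to each, from -0.74 with Prdm8 to -0.90 with Kazald1. These values are a description and reflect the choice of the genes.

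The nearest measured genes on either side of each gene mostly did not share its pattern. Of 20 such neighbours, 1 was higher and 0 were lower in tumour-associated than in normal samples by limma, where 9.65% of all genes passed, 4.85% higher and 4.80% lower. Against inflamed samples 2 were higher and 0 lower, where 6.71% of all genes passed, 3.67% higher and 3.04% lower. Between inflamed and normal samples 0 of the 20 passed by limma (0.533% of all genes did). An unadjusted p under 0.05 was reached by 3 of the 20 and by 2837 of 18193 genes. The median difference of the neighbours was 0.01 between tumour-associated and normal samples, beside 0.04 for all genes.

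The exception was Me1, the cytosolic malic enzyme that makes NADPH, 47.3 kb from Prss35. Me1 averaged 10.04 ± 0.44 (SD, n = 4) in tumour-associated, 7.55 ± 0.32 in inflamed and 6.85 ± 0.09 in normal samples. It rose by 3.19 (log2) against normal samples and by 2.49 against inflamed samples, and kept both calls under 23 of 23 alternatives (limma, highest adjusted p = 0.00967). Its other probe set gave 3.30 and 2.63. Snap91, the neighbour of Prss35 on the other side at 7.5 kb, differed by 1.73 from normal and by -0.15 from inflamed samples and did not pass.

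Beside the low genes, no neighbour differed by more than 0.82 (log2) in any of the 3 comparisons. Antxr2, a receptor for anthrax toxin and collagen, and the growth factor Fgf5 flank Prdm8 at 136.2 kb and 66.7 kb and differed by -0.82 and 0.19 (log2) between tumour-associated and normal samples, neither past the test. A730035I17Rik, which overlaps Prdm8, differed by -0.16 and was dim in every group. Sfxn3 and Tlx1, the nearest measured genes of Kazald1, both differed by -0.05. Triqk, 1520.9 kb from Slc26a7, rose by 0.80 against inflamed samples (limma, adjusted p = 0.0292), and kept that call under 16 of 23 alternatives.

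**Figure D5:**
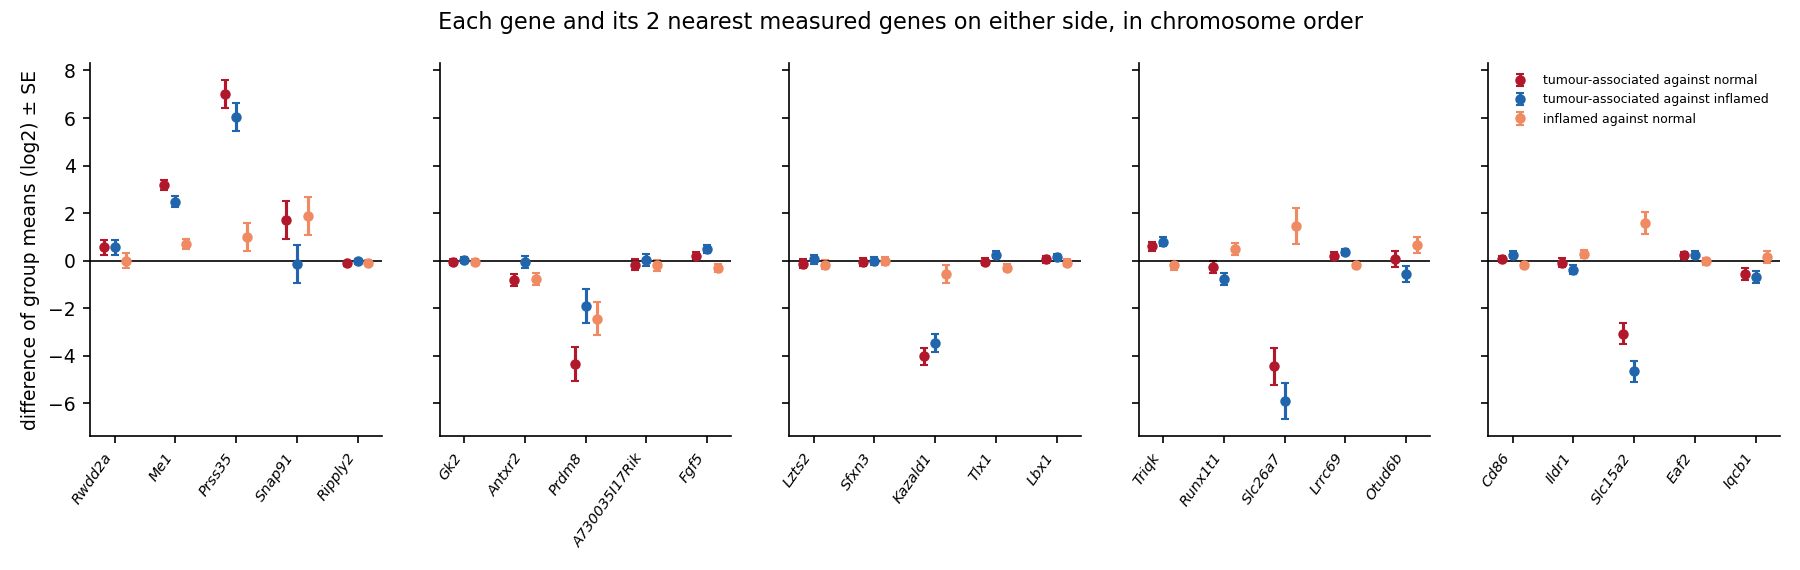
Difference of group means (log2 ± SE, vertical axis) for each gene (centre of its panel) and the 2 nearest measured genes on either side, in chromosome order (horizontal axis), in 3 comparisons. Me1 beside Prss35 is the neighbour farthest from 0 (3.19), while neighbours of the low genes stay within 0.82 of 0.

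Relatives of the 5 genes were described by lists that hold none of the 5 and that were chosen with earlier results of these data known. Their counts are to be read against all genes, of which 4.85% were higher and 4.80% lower in tumour-associated than in normal samples, so that 1 call in a list of 11 to 18 genes is near that share. By limma, an unadjusted p under 0.05 was reached by 2837 of 18193 genes between inflamed and normal samples. Between tumour-associated and inflamed samples it was reached by 4816, and the lists' unadjusted counts are to be read against these. Of 12 serine proteases of the Prss and Htra families, 0 were higher and 1 was lower in tumour-associated than in normal samples. It was Htra3, which fell by 0.74 (limma, adjusted p = 0.0451, called under 6 of 23 alternatives). Against inflamed samples Htra1 rose by 0.71 (adjusted p = 0.0256, called under 17 of 23 alternatives). The median of the list was -0.12 between tumour-associated and normal samples, beside 0.04 for all genes.

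Of 11 measured genes of the PRDM family, 1 rose between tumour-associated and normal samples and none fell. Prdm11 rose by 0.71 (limma, adjusted p = 0.0487, called under 8 of 23 alternatives), on 1 of 2 probe sets, the other of which gave 0.08. The list had 0 calls by limma between inflamed and normal samples (3 at an unadjusted p under 0.05) and between tumour-associated and inflamed samples (2), and its median was 0.24 in both comparisons with normal samples.

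Of 13 genes of IGF signalling and IGF binding, 1 rose and 1 fell in tumour-associated against normal samples. The growth factor Igf1 averaged 13.38 ± 0.10 (SD, n = 4) in tumour-associated, 11.36 ± 0.30 in inflamed and 10.89 ± 0.16 in normal samples. It rose by 2.49 against normal and by 2.02 against inflamed samples and was called under 23 of 23 alternatives in both (limma). Igfbp6, an IGF-binding protein, fell by 1.86 against normal samples (adjusted p = 0.0195, called under 19 of 23 alternatives). The other 11 did not pass in that comparison.

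Of 18 measured anion and bicarbonate exchangers of the Slc26 and Slc4 families, 1 fell between tumour-associated and normal samples and none rose. Slc26a1, a sulphate transporter, fell by 1.05 (limma, adjusted p = 0.0383, called under 7 of 21 alternatives) and was dim in tumour-associated samples. No exchanger of the list passed by limma in the other 2 comparisons, with 5 at an unadjusted p under 0.05 in each. Its median lay at 0.01 between tumour-associated and normal samples.

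The list of Slc15 transporters and of enzymes that cut small peptides had the most calls of these lists. Of 12 genes, 1 rose and 4 fell in tumour-associated against normal samples, where 9.65% of all genes passed. Because the list was chosen with earlier results of these data known, its count beside that share is a description. Dpp4, a surface dipeptidyl peptidase, fell by 1.98 (limma, adjusted p = 0.0187, called under 21 of 23 alternatives). Anpep, aminopeptidase N, fell by 1.25 (adjusted p = 0.0246, called under 16 of 22), and Npepps, a cytosolic aminopeptidase, fell by 0.75 (adjusted p = 0.00504, called under 21 of 23). Slc15a4, a lysosomal peptide and histidine transporter, fell by 0.95 (adjusted p = 0.0487, called under 5 of 23), and its other probe set gave 0.21. Dpep1, a membrane dipeptidase, rose by 1.69 (adjusted p = 0.0233, called under 20 of 23). The list's median was -0.20, and 0 of the 12 passed by limma between tumour-associated and inflamed samples (1 at an unadjusted p under 0.05) or between inflamed and normal samples (4). The 5 calls came to 1 with the Gapdh covariate and to 1 with only the 2 groups compared, since Dpp4, Anpep, Dpep1 and Slc15a4 lost their calls in both. Shifting each array by its ribosomal protein genes, which moved the median of all genes to 0.31, left 2, and leaving out tumour-associated array 3 or normal array 4 left 3.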

How the data were processed

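RNA of 12 sorted fibroblast samples was hybridised to Affymetrix arrays. The deposited values are log2 expression per probe set. Limma is named for processing, per the submitters' processing notes; how background was corrected, or arrays scaled, is not given in the sources used here. Lower and upper quartiles of the arrays spanned 0.284 and 0.276 (log2), over a limit of 0.1, so the values were quantile-normalized. Of 45101 probe sets, 34945 named 1 gene, 932 several and 9160 none, and 64 were controls. Each gene took its probe set with the highest mean. Arrays of a group correlated at 0.89 to 0.987, and their number limits precision.

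One model with 3 group means was fitted to 18193 genes with limma 3.58.1 in R 4.3.3 (lmFit, eBayes). Tests were two-sided, called at a Benjamini-Hochberg adjusted p under 0.05, and the fit was tested on simulated data. Genes called in a list, called neighbours and the 4 most correlated genes were named. Members and lists were chosen with earlier results of these data known. Same-numbered samples correlated at -0.094 to 0.177 in their deviations, 2 of 12 pairs over 0.1, and samples of unlike number at -0.175 to 0.167. The numbers were not taken as pairs in the main model. Both pairs over 0.1 joined tumour-associated with normal arrays, number 3 (0.161) and number 4 (0.177). Array 4 had the highest spike level and Gapdh difference in each of these groups. Shared handling by number was not tested, and a fit with the replicate block is among the alternatives. Promoters are from RefSeq (GRCm38.p6); Slc26a7 is named only.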

Additional observations from a re-analysis of the deposited data

How the results depend on the processing

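Each value was recomputed under 23 alternatives, of which the shift by ribosomal protein genes was chosen after seeing the data. Between inflamed and normal samples all 115 values of the 5 genes kept their direction and 4 moved past the threshold, all given in the report: Prdm8 without tumour-associated array 4 and with array weights (-2.46), and Slc15a2 with array weights (1.64) and the Gapdh covariate (1.81). Leaving out 1 array gave -2.81 to -2.13 for Prdm8. In both comparisons of tumour-associated samples 229 of 230 values kept their direction. The exception was Prdm8 against inflamed samples with the spike covariate (0.51), where Kazald1 (-2.15), Slc26a7 (-4.25) and Slc15a2 (-3.74) also moved; the cause was not tested. The Gapdh covariate moved Prdm8 (-3.07), Slc26a7 (-3.03) and Slc15a2 (-2.35) against normal samples, and the mean of all probe sets moved Slc15a2 (-0.98 against normal and -1.44 against inflamed samples) because 2 of its probe sets were flat.

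Over all genes, limma called 97 between inflamed and normal samples. The values as deposited gave 62, the mean of all probe sets 228, the replicate block 57, array weights 839, the Gapdh covariate 152 and the spike covariate 0 (2206 at an unadjusted p under 0.05). Leaving out 1 array gave 0 to 249, with 0 without inflamed array 1 or 2 or normal array 1 (2222, 1967 and 2358 at an unadjusted p under 0.05), 13 when normal array 2 was dropped and 44 when inflamed array 3 was. Dropping tumour-associated array 2, 3 or 4 gave 49, 55 or 249. Between tumour-associated and normal samples 1756 were called, against 1094 with only the 2 groups compared and 970 with the Gapdh covariate. Between tumour-associated and inflamed samples 1221 were called, against 2813 with array weights, 259 with the spike covariate, 778 with the Gapdh covariate and 7270 with the ribosomal shift. Leaving out 1 array gave 578 to 1581 there, with 578, 621 and 716 without inflamed arrays 1, 2 and 4.

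Under the ribosomal shift 95.1% of the calls between tumour-associated and inflamed samples were higher, against 54.7% without it. It gave 75.7% against 50.3% between tumour-associated and normal samples, and 23.1% against 48.5% between inflamed and normal samples. The median of all genes was then 0.59, 0.31 and -0.28 (log2). The replicate block changed no call of the 5 genes. Of 414 counts in the lists of relatives and neighbours, 305 stayed within 1.5 times, 57 were lower and 52 higher. The dim inflamed and normal levels of Prss35 and the dim tumour-associated levels of both transporters limit how far their folds can be read.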
